A study of Mus musculus with 4 samples.

Results

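Desmosomes are spot-like junctions that weld neighbouring epithelial cells together and anchor their keratin filaments. Their adhesive core is made of the desmosomal cadherins, desmogleins and desmocollins, whose tails bind plakoglobin and the plakophilins, and desmoplakin links that plaque to the filaments. They are abundant in epithelia and in heart muscle, and embryonic cells that turn from an epithelial into a mesenchymal state lose them. The 9 genes described here are Dsg2 and Dsc2 (cadherins), Dsp (desmoplakin), Jup (plakoglobin), Pkp1, Pkp2, Pkp3 and Pkp4 (plakophilins) and Perp (a membrane protein with several transmembrane passes, required for desmosomes of stratified epithelia). They were taken by symbol from the 24831 genes of the count tables, with no cutoff, and all 9 had enough reads to be tested, among 13602 genes that did. They were proposed with the values of dTAG-13 against untreated already known, so their levels and fold changes in that contrast are given as a description, and nothing is read from their counts of calls in it.

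RNA was sequenced from mouse somitic gastruloids, which are aggregates of embryonic stem cells that elongate and form somite-like tissue in culture. The dTAG-13 group (2 libraries) was grown from the E14 triple reporter line, in which the endogenous Zeb2 gene carries an HA epitope and an FKBP12 F36V degron, and received 100 nM dTAG-13 at 72 and 96 h. dTAG-13 is a small molecule that brings the degron to a ubiquitin ligase. The untreated group (2 libraries) was grown from the same tagged line, so both groups carry the degron. Its label says untreated, while the growth protocol lists a DMSO control. In both groups 300 cells were sorted per well, 3 μM CHIR99021, an activator of WNT signalling, was added after 48 h and gastruloids were embedded in 10% Matrigel at 96 h. The labels name 1 cell line and do not say whether the libraries numbered 1 and 2 came from separate cultures, so the errors and p-values cover the spread among these 4 libraries alone, and it may be technical. ZEB2, the product of the tagged gene, is a zinc finger repressor of epithelial genes, and the comparison sets gastruloids in which it is targeted for degradation beside those in which it is not.

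Depth was similar, with 12230908 and 11491330 reads assigned to genes in the dTAG-13 libraries, against 12716172 and 11566746 in the untreated libraries. Reads outside genes were 25.3% and 29.2% of the total with dTAG-13, against 35.7% and 24.1% in untreated gastruloids, so untreated replicate 1 stood highest. Genes of the presomitic mesoderm and somites, which define the labelled tissue, all 8 had reads in every library. Ripply2, however, had only 1 and 2 reads with dTAG-13, against 22 and 15 in untreated gastruloids. Their levels summed to 130.3 and 79.8 CPM (a read count scaled to library size, here with TMM factors) with dTAG-13 and to 253 and 145.5 CPM in untreated gastruloids. Zeb2 mRNA was at 102.5 and 108 CPM with dTAG-13 and at 98.3 and 164 CPM in untreated gastruloids, ranges that overlap, and it does not check the labels because dTAG-13 acts on the protein.

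Of the 9 desmosome genes, 6 were higher in both dTAG-13 libraries than in either untreated library: Dsg2, Dsc2, Dsp, Jup, Pkp1 and Pkp3. Over all genes tested, 14.4% were separated in this way and direction. The remaining genes, Pkp2, Pkp4 and Perp, had overlapping groups. The median log2 fold change of the 9 genes was 0.92, a 1.89-fold higher level with dTAG-13, against a median of 0.0040 over all 13602 genes tested. Summed over the 9 genes, levels reached 928 and 1192 CPM with dTAG-13, against 544 and 722 CPM in untreated gastruloids. In bulk RNA, more cells that express a gene and more RNA per cell cannot be told apart.

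**Figure D1:**
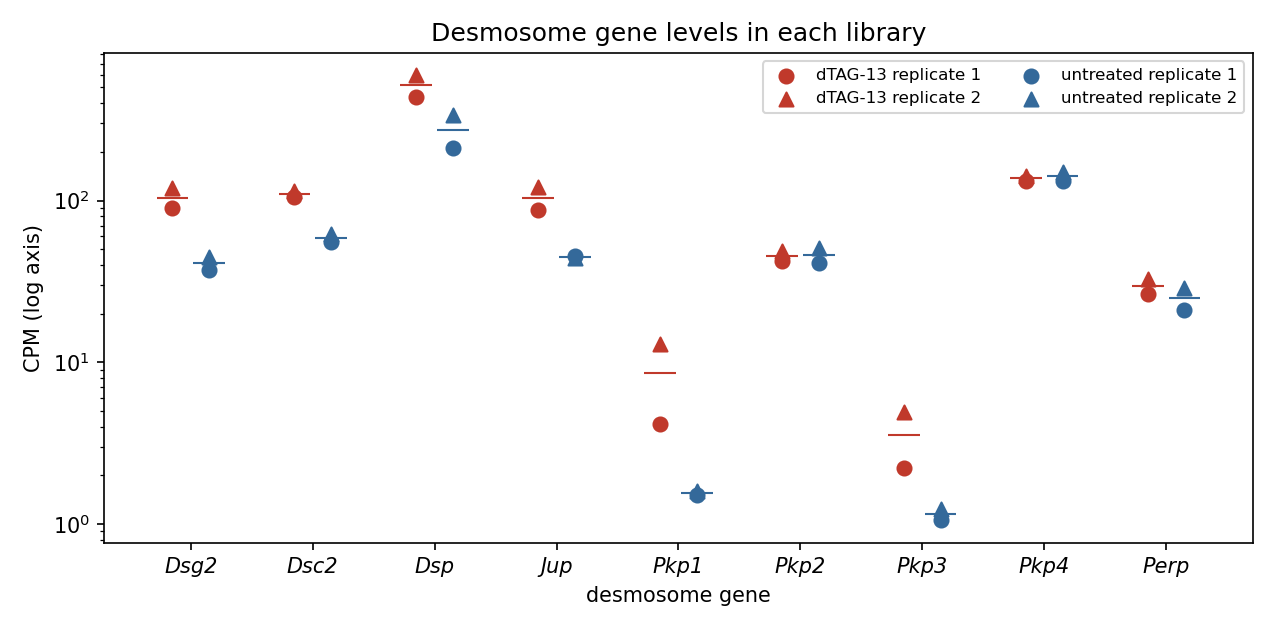
Level of each desmosome gene in CPM (log axis) in every library, with dTAG-13 libraries in red on the left and untreated libraries in blue on the right, circles for replicate 1, triangles for replicate 2 and a line at each group mean. The red and blue points are apart for Dsg2, Dsc2, Dsp, Jup, Pkp1 and Pkp3 and interleave for Pkp2, Pkp4 and Perp.

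Both cadherin genes, whose products span the membrane and join the cells, were higher with dTAG-13. Dsg2 encodes desmoglein 2, the desmoglein of simple epithelia and heart, and had 89.4 and 119 CPM with dTAG-13, against 37.4 and 44.7 CPM in untreated gastruloids. The groups did not overlap, and the lower dTAG-13 library was well above the higher untreated one. Its log2 fold change was 1.35 ± 0.19 (SE), a 2.54-fold higher level, and leaving out single libraries kept it between 1.11 and 1.54. Dsc2 encodes desmocollin 2, its partner, and had 105 and 115 CPM with dTAG-13, against 55.4 and 62.1 CPM in untreated gastruloids. These libraries were close together within each group, and the log2 fold change of 0.91 ± 0.14 had the smallest error but one of the 9 genes. Both genes lie on chromosome 18 in GRCm38, Dsc2 at 20030633 to 20059554 and Dsg2 at 20558074 to 20604521. The GENCODE annotation places the antisense gene Gm16090 over Dsg2, and Gm10129 opposite Dsp and Gm36938 along Pkp1. No source used here states whether the counting used strand, so reads of overlapping genes cannot be told apart.

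The part of the cadherin reads that came from Dsg2 was also higher in both dTAG-13 libraries. It took 46.0% of the reads shared by Dsg2 and Dsc2 in dTAG-13 replicate 1 (exact binomial 95% interval 43.9% to 48.1%) and 50.9% in dTAG-13 replicate 2 (49.0% to 52.8%). In untreated gastruloids it took 40.3% (37.5% to 43.1%) and 41.8% (39.0% to 44.7%). Both dTAG-13 shares were above both untreated shares, although the intervals, which cover counting error only, overlapped between dTAG-13 replicate 1 and untreated replicate 2. The other desmogleins and desmocollins, known mainly from stratified epithelia and hair, were close to absent in every library. Of Dsg1a, Dsg1b, Dsg1c, Dsg3, Dsg4, Dsc1 and Dsc3, 0 passed the filter on low counts. Dsc3 had the most reads, 8 and 6 with dTAG-13 and 0 and 3 in untreated gastruloids, and Dsg1a and Dsg1c had 0 reads in every library, which allows up to 0.226 to 0.267 CPM, depending on the library.

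**Figure D2:**
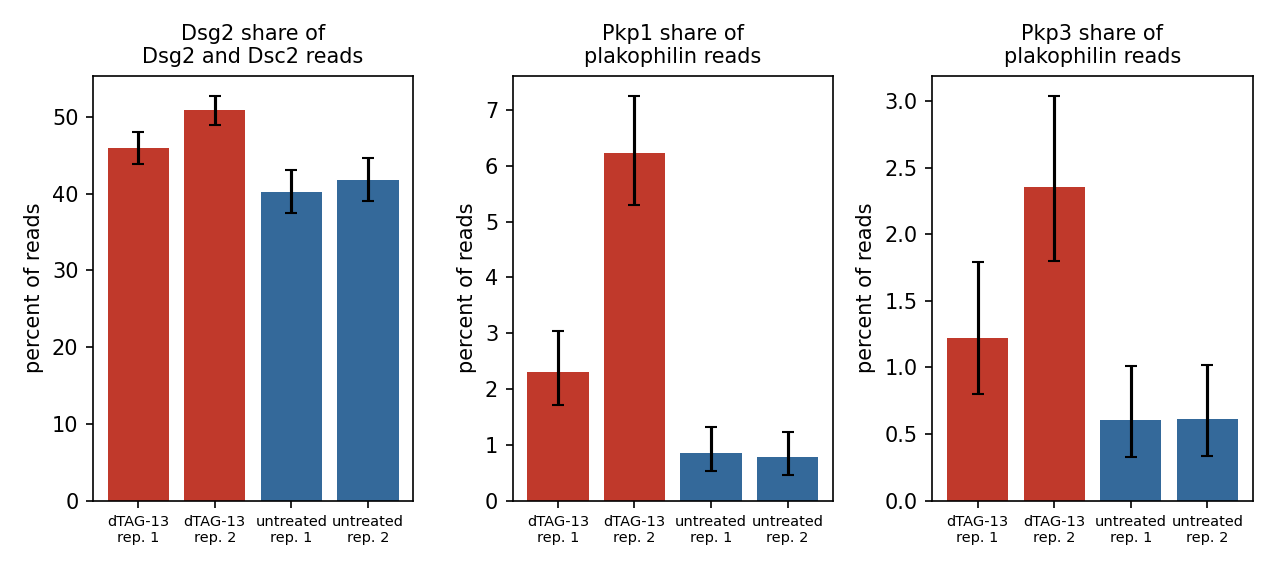
Share of Dsg2 among Dsg2 and Dsc2 reads, and of Pkp1 and Pkp3 among all plakophilin reads, in percent for each library, with dTAG-13 in red and untreated in blue and error bars giving exact binomial 95% intervals. For all 3 genes, both dTAG-13 shares were above both untreated shares. For Dsg2 and Pkp3 the interval of dTAG-13 replicate 1 overlapped an untreated interval.

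Desmoplakin was the most abundant of the 9 by reads. Dsp had 439 and 595 CPM with dTAG-13, against 210.1 and 338 CPM in untreated gastruloids, from 5148 and 7005 reads against 2789 and 3799. The lower dTAG-13 library exceeded the higher untreated one, yet replicate 2 was the higher library within each group. The log2 fold change was 0.92 ± 0.28, a 1.89-fold higher level, ranging from 0.60, with untreated replicate 1 left out, to 1.30, with untreated replicate 2 left out. Within a replicate number the difference was 1.06 in number 1 and 0.82 in number 2. Dsp supplied 47.3% and 49.9% of the reads of the 9 genes with dTAG-13, and 38.6% and 46.8% in untreated gastruloids. Plakoglobin, the Jup product, binds desmosomal cadherins and also classical cadherins in adherens junctions. Jup had 87.3 and 121 CPM with dTAG-13, against 45.3 and 43.9 CPM in untreated gastruloids. The untreated libraries were nearly level and the dTAG-13 libraries were spread above them. Its log2 fold change was 1.23 ± 0.19, or 0.95 without dTAG-13 replicate 2. Jup had 0.199 and 0.204 reads per Dsp read with dTAG-13 and 0.216 and 0.130 in untreated gastruloids, an overlapping range.

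Promoter sequences from RefSeq (GRCm38.p6) matched 3 of the 9 genes, Dsp, Jup and Pkp4, with separate start sites for Pkp4. They are shown because the tagged protein belongs to a family that binds the E-box CAGGTG and its CACCT half-site, and because Dsp and Jup were higher with dTAG-13 whereas Pkp4 was not. Each runs from 250 bases before to 50 after the annotated start, 5′ to 3′ on the gene's strand. Capitals mark CACCT on either strand, and CAGGTG, which holds such a half-site, in full.
Dsp, chr13:38151044-38151343, plus strand: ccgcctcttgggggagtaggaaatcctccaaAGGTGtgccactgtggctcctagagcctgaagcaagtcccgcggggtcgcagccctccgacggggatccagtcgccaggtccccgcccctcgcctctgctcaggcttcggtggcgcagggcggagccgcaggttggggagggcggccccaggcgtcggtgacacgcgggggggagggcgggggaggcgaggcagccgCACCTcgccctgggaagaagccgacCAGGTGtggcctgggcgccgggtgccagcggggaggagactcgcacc
Jup, chr11:100397741-100398040, minus strand: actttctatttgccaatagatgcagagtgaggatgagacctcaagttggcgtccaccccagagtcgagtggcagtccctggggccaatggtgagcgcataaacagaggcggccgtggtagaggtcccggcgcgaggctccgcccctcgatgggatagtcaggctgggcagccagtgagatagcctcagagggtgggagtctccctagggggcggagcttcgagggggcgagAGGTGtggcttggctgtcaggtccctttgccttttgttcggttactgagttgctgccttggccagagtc
Pkp4 second start site, chr2:59161619-59161918, plus strand: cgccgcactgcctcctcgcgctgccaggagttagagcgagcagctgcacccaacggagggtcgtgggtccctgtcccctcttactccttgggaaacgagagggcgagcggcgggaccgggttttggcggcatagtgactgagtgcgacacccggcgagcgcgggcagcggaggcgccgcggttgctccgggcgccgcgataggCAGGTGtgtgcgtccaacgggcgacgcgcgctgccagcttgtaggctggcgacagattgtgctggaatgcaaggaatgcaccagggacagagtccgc
The Dsp promoter held 1 CAGGTG, beginning 4 bases into the transcript, and 3 CACCT half-sites, 1 of them inside that E-box. The Jup promoter held 0 CAGGTG and 1 CACCT. Pkp4 held 0 CAGGTG and 2 CACCT at its first start site and 1 CAGGTG, with the half-site inside it, at the second, beginning 47 bases before the start. Among all 32851 promoters of this length, 20.2% held CAGGTG and 51.9% held CACCT on either strand, so both motifs are common. AACCNGGTT, a site known for grainyhead-like factors, which activate epithelial genes, was in 0.271% of all promoters and in 0 of these 4. A match is a run of letters only and was not tested as a binding site.

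The plakophilins, armadillo proteins that cluster desmosomal cadherins and recruit desmoplakin, separated into a pair that was higher and a pair that was not. Pkp1, best known from stratified epithelia, had 4.18 and 12.99 CPM with dTAG-13, from 49 and 153 reads, against 1.51 and 1.60 CPM in untreated gastruloids, from 20 and 18 reads. The dTAG-13 libraries differed more from each other than the untreated libraries did. The log2 fold change of Pkp1 was 2.46 ± 0.61, rank 10 of 13602 genes, and it was 1.40 without dTAG-13 replicate 2. Pkp3, found in most epithelia, had 2.22 and 4.93 CPM with dTAG-13, from 26 and 58 reads, against 1.05 and 1.25 CPM in untreated gastruloids, from 14 reads in each. Its log2 fold change was 1.63 ± 0.54, or 0.92 without dTAG-13 replicate 2. Both genes were low in every library, and dTAG-13 replicate 2 was the highest library for each.

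Pkp2 and Pkp4 had many more reads and near-equal groups. Pkp2, the plakophilin of simple epithelia and heart muscle, had 42.4 and 48.9 CPM with dTAG-13, against 41.0 and 50.9 CPM in untreated gastruloids. Its log2 fold change was -0.01 ± 0.17, with single libraries moving it from -0.17 to 0.16. Pkp4, also called p0071, which is found at adherens junctions as well as desmosomes, had 132 and 142 CPM with dTAG-13, against 132 and 150.5 CPM in untreated gastruloids. Its log2 fold change was -0.04 ± 0.14, between -0.15 and 0.06 without single libraries. For both genes the dTAG-13 libraries lay within the untreated range. Among plakophilin reads, Pkp1 accordingly made up 2.31% (1.71% to 3.04%) and 6.23% (5.30% to 7.25%) with dTAG-13, and 0.860% (0.526% to 1.33%) and 0.784% (0.465% to 1.24%) in untreated gastruloids. Pkp3 made up 1.23% (0.802% to 1.79%) and 2.36% (1.80% to 3.04%) with dTAG-13, and 0.602% (0.329% to 1.01%) and 0.610% (0.334% to 1.02%) in untreated gastruloids. For Pkp3 the interval of dTAG-13 replicate 1 overlapped those of both untreated libraries. Pkp4 held 73.0% and 68.0% with dTAG-13 and 75.2% and 73.7% in untreated gastruloids, and Pkp2 stayed between 23.4% and 24.9% in all 4 libraries.

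Perp, a target of p53 and p63 that encodes a desmosomal membrane protein, had 26.4 and 32.7 CPM with dTAG-13, against 21.1 and 28.6 CPM in untreated gastruloids. Each dTAG-13 library was above the untreated library of its own number, but dTAG-13 replicate 1 lay below untreated replicate 2. The log2 fold change was 0.25 ± 0.22, and it was 0.03 without untreated replicate 1. Perp thus lay with Pkp2 and Pkp4 among the desmosome genes whose groups overlapped.

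**Figure D3:**
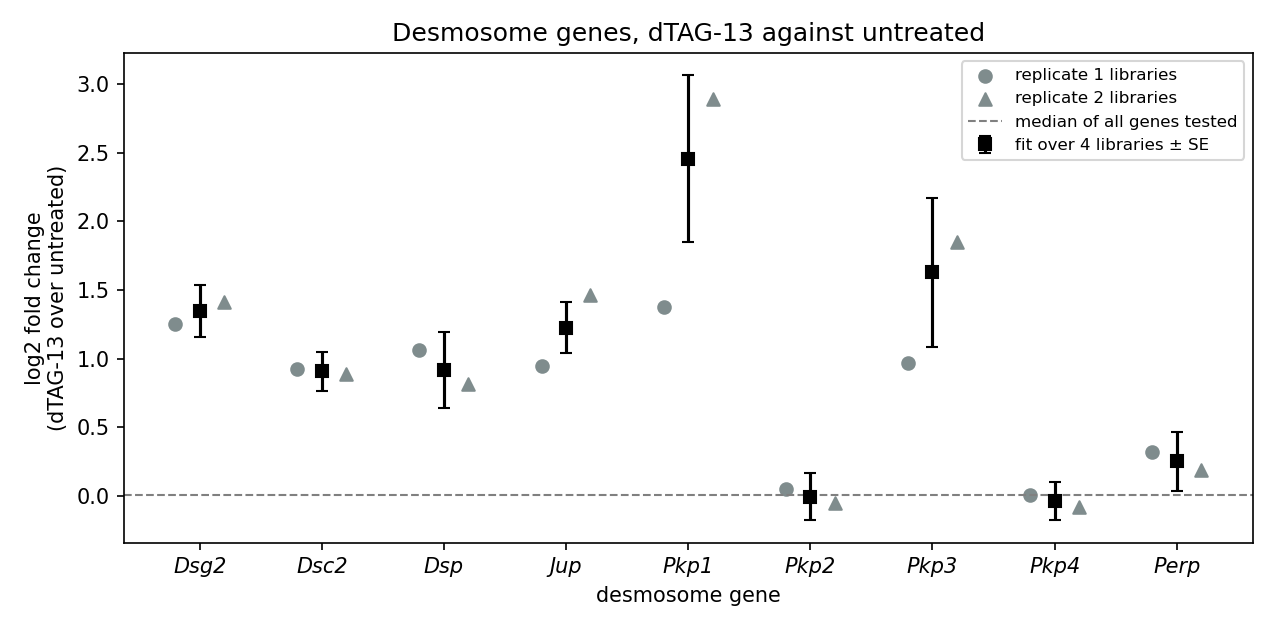
Log2 fold change of each desmosome gene, dTAG-13 over untreated, from the fit over 4 libraries (black squares, bars ± SE) and within each replicate number (grey circles and triangles), with a dashed line at the median of all genes tested. Dsg2, Dsc2, Dsp, Jup, Pkp1 and Pkp3 stood at 0.91 to 2.46, Perp at 0.25 and Pkp2 and Pkp4 at the line.

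Fitted by group alone in edgeR's quasi-likelihood model, 0 of the 9 genes and 0 of all 13602 genes (0%) had an adjusted p under 0.05, the smallest over all genes being 0.760. At an unadjusted p under 0.05 there were 6 of the 9 genes, all with higher estimates, and 479 of all genes (3.52%), 312 of them higher (2.29%). DESeq2 on the same counts called 3 of the 9 genes, Dsg2, Jup and Dsc2, and 27 genes in that direction in all (0.219%). Because the genes were chosen with this contrast known, these counts are not read as evidence about the list.

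Levels between genes were compared per kilobase of exon, in CPM per kb over the union of GENCODE M21 exons. With dTAG-13 the order was Dsp (53.5), Pkp4 (24.0), Dsc2 (20.9), Jup (16.2), Perp (15.1), Dsg2 (12.6), Pkp2 (8.52), Pkp1 (1.71) and Pkp3 (0.988). In untreated gastruloids it was Dsp (28.4), Pkp4 (24.7), Perp (12.7), Dsc2 (11.1), Pkp2 (8.57), Jup (6.93), Dsg2 (4.96), Pkp3 (0.318) and Pkp1 (0.309). Per kilobase of union exons, Jup and Dsg2 stood above Pkp2 with dTAG-13 and below it in untreated gastruloids, without overlap between their libraries. In untreated gastruloids the libraries of Dsp (21.8 and 34.99 CPM per kb) spanned those of Pkp4 (23.1 and 26.4), those of Perp (10.8 and 14.7) overlapped those of Dsc2 (10.5 and 11.8), and Pkp1 and Pkp3 overlapped. With dTAG-13, Jup (13.6 and 18.8) overlapped Perp (13.5 and 16.7) and Dsg2 (10.8 and 14.4), Perp overlapped Dsg2, and Pkp1 overlapped Pkp3. These neighbours did not differ beyond their spread. The order depends on the length used: over the longest coding transcript, untreated Pkp4 was at 30.6 and Dsp at 28.6 CPM per kb, and Pkp2, at 15.7, was next. Over that length the libraries of untreated Jup, with a mean of 13.9, overlapped those of Pkp2. With dTAG-13 those of Dsg2, with a mean of 18.1, overlapped those of Pkp2, with a mean of 15.65.

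The desmosome genes also varied between the libraries numbered 2 and those numbered 1, a contrast balanced over the treatment that played no part in choosing them. In edgeR's quasi-likelihood test of the number with the group as the other term, 2 of the 9 genes passed an adjusted p of 0.05, Dsp and Pkp1, both higher in number 2, and 5.2% of all genes passed in that direction. Dsp had 595 and 338 CPM in the dTAG-13 and untreated libraries numbered 2, against 439 and 210.1 CPM in those numbered 1. It rose by 0.56 ± 0.18 on the log2 scale (adjusted p = 0.0187), was higher in number 2 in both groups and passed also by DESeq2 (adjusted p = 0.0122), which called 1.63% of its genes in that direction. Pkp1 rose by 1.12 ± 0.34 (adjusted p = 0.0108), but the difference was 1.60 between the dTAG-13 libraries and 0.08 between the untreated libraries. It did not pass by DESeq2 (adjusted p = 0.569), and whether the groups differ in it could not be tested with 1 library for each group and number. Dsg2 (0.34 ± 0.13, adjusted p = 0.0742), Perp (0.38 ± 0.17, adjusted p = 0.133) and Pkp3 (0.81 ± 0.41, adjusted p = 0.209) had positive values and did not pass. The median over the 9 genes was 0.34, against 0.0038 over all genes.

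**Figure D4:**
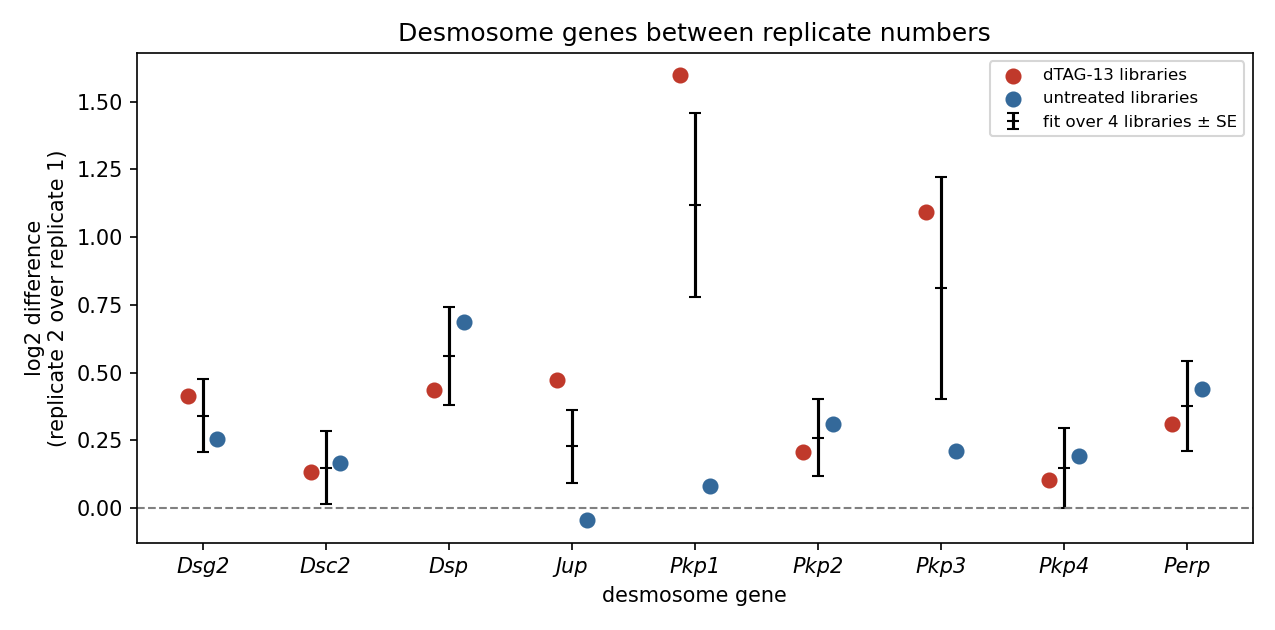
Log2 difference of each desmosome gene between libraries numbered 2 and 1, within dTAG-13 (red), within untreated (blue) and in the fit over 4 libraries (black, bars ± SE). Dsp was positive in both groups, at 0.44 and 0.69, whereas Pkp1 and Pkp3 had values above 1 within dTAG-13 and 0.08 and 0.21 within untreated.

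Genes that work with desmosomes but were not among the 9 were taken from lists chosen by function. Of 51 such genes 43 were tested, 32 with a higher and 11 with a lower estimate, and 0 of 43 passed an adjusted p of 0.05 in edgeR. At an unadjusted p under 0.05 there were 11 of the 43, all with higher estimates, against 2.29% of all genes in that direction. DESeq2 called 3 of the 43, Krt8, Krt18 and Nectin4, all higher, against 0.219% of all genes in that direction. The list of plakins, together with the keratins that desmosomes anchor, had 10 of 10 tested members with higher estimates (9 of 10 with upper quartile or total count scaling). Its median log2 fold change was 1.05, against 0.92 for the desmosome genes. Without dTAG-13 replicate 2 the list had 8 of 10 higher and a median of 0.74, and without any other library 9 of 10. Estimates of the plakin genes Dst and Plec were small, at 0.02 ± 0.15 and 0.10 ± 0.15. The keratins Krt18 and Krt8, which form the filaments of simple epithelia, had log2 fold changes of 1.08 ± 0.22 and 1.40 ± 0.27, and Krt7 had 1.01 ± 0.27. Evpl, which encodes envoplakin, a plakin of the cornified envelope, was at 17.0 and 27.8 CPM with dTAG-13 and at 7.08 and 12.9 CPM in untreated gastruloids, a log2 fold change of 1.17 ± 0.38. Of the 10 genes tested in this list, 6 were higher without overlap between the groups, against 14.4% of all genes. Krt8, Krt18, Krt7 and Evpl were among the 6, but they were named for their small p in this same contrast. Ppl, Krt5, Dst and Plec had overlapping groups.

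Adherens junction genes, whose cadherin and catenin design parallels that of desmosomes, had a lower median of 0.18, with 11 of 15 estimates higher and 4 lower, and leaving out single libraries moved the median between 0.12 (untreated replicate 1 out) and 0.30 (untreated replicate 2 out). Nectin4 had 9.64 and 19.4 CPM with dTAG-13, against 2.11 and 3.20 CPM in untreated gastruloids, a log2 fold change of 2.45 ± 0.45 close to that of Pkp1. Cdh3, which encodes P-cadherin, had 0.89 ± 0.20, Nectin2 had 0.81 ± 0.34 and Ctnna1, the α-catenin gene, 0.34 ± 0.15. Cdh1 had 0.93 ± 0.48 with overlapping groups. In this list 7 genes were higher and 3 lower without overlap, against 1956 and 1612 of all 13602 genes. The lower 3 were Cdh2 (-0.34 ± 0.22), Ctnna2 (-0.85 ± 0.43) and Arvcf (-1.14 ± 0.72, at most 11 reads). Without dTAG-13 replicate 2 Nectin2 was at 0.32, and without dTAG-13 replicate 1 Ctnna1 was at 0.215. Regulators of desmosome genes and adhesion had a median of 0.56, with 11 of 12 estimates higher (10 under the other scalings, 7 without dTAG-13 replicate 2), a median that leaving out single libraries moved between 0.13 (dTAG-13 replicate 2 out) and 1.04 (untreated replicate 2 out). Ovol1 and Grhl2, transcription factors of epithelia, had 1.89 ± 0.50 and 1.32 ± 0.38, Klf5 had 0.90 ± 0.26, and Trp63, the master factor of stratified epithelia, 2.28 ± 0.64 at no more than 2.63 CPM. These 4 were named for their small p in this same contrast. They were the only regulators of the 12 without overlap between the groups, against 14.4% of all genes. Their relatives Grhl1 (0.49 ± 0.49), Grhl3 (0.96 ± 0.96), Ovol2 (0.63 ± 0.52) and Klf4 (0.41 ± 0.44) had overlapping groups. Without dTAG-13 replicate 2, Grhl2 was at 0.71, Klf5 at 0.56 and the plakin gene Evpl at 0.75. The 6 EMT transcription factors all had estimates below 0, with a median of -0.31 and overlapping groups in each. Zeb1 had -0.71 ± 0.48, Zeb2 -0.32 ± 0.25, Twist2 -1.01 ± 0.83 and Twist1 -0.30 ± 0.67. Snai1 (-0.01 ± 0.34) and Snai2 (-0.07 ± 1.09) were close to 0. Leaving out untreated replicate 1 turned the median of the EMT factors to 0.26, with 2 of 6 below 0, and leaving out dTAG-13 replicate 2 put 3 of 6 below 0. As single libraries were left out, Zeb1 ran from -1.43 to -0.25, Zeb2 from -0.65 to 0.10, Twist2 from -2.06 to 0.24 and Twist1 from -1.09 to 0.57.

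**Figure D5:**
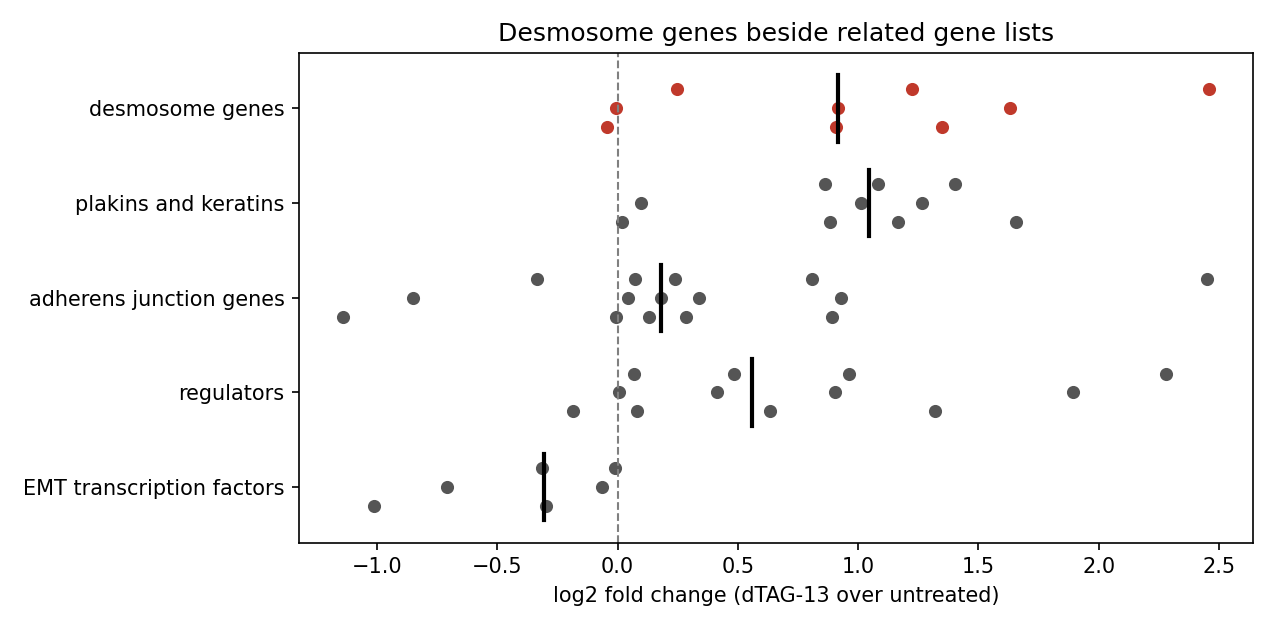
Log2 fold change, dTAG-13 over untreated, of every tested gene of the desmosome set (red) and of 4 related lists (grey), with a black bar at each median. The desmosome genes (median 0.92) and the plakins and keratins (1.05) lay further right than the adherens junction genes (0.18), and the EMT transcription factors lay to the left (-0.31), differences between lists that were not tested.

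Markers of several cell types are given beside these values. Some markers also stand in the related lists above: Krt8, Krt18, Krt19 and Cdh1 (epithelium) and Krt5, Krt15, Trp63 and Grhl3 (surface ectoderm). Cldn6 is in both the epithelial and the gut list, so the lists are not separate observations. Of 10 epithelial markers, all had higher estimates and 8 did not overlap between the groups, against 14.4% of all genes separated in that direction. They summed to 1095 and 2025 CPM with dTAG-13, against 605 and 840 CPM in untreated gastruloids. Surface ectoderm markers, 8 of 9 tested, were all 8 higher, 4 of them without overlap. Their median was 1.36, or 0.44 without dTAG-13 replicate 2, with 6 of 8 then higher. They summed to 143 and 444 CPM with dTAG-13, against 77.4 and 196 CPM in untreated gastruloids, which overlap. These sums were higher in number 2 in both groups, as Dsp was. Gut endoderm markers, 7 of 8 higher (4 without dTAG-13 replicate 1, 5 without untreated replicate 2), summed to 520.3 and 574 CPM with dTAG-13, against 427 and 331 CPM in untreated gastruloids. Pluripotent cell markers were 8 of 8 higher, 2 of them without overlap. Their median was 0.41, or 0.03 without dTAG-13 replicate 2, with 6 of 8 then higher. They summed to 375 and 547 CPM with dTAG-13, against 307 and 378 CPM in untreated gastruloids, which overlap. Heart muscle, the other tissue rich in Dsg2, Dsc2, Dsp and Pkp2, gave 58.5 and 30.9 CPM for its summed markers with dTAG-13 and 86.5 and 23.9 CPM in untreated gastruloids, which overlap. Much of these sums was Ttn, at 32.8 and 17.7 CPM with dTAG-13 and 54.7 and 8.90 CPM in untreated gastruloids. Of the 10 heart markers 7 were tested, and Nkx2-5 and Nppa had at most 5 and 1 reads in a library. Endothelial markers summed to 137 and 48.7 CPM with dTAG-13 and to 168 and 42.2 CPM in untreated gastruloids, which also overlap. Markers of neural tube progenitors and of the somitic tissue had lower estimates. Over all 13602 genes tested, 1612 were lower without overlap. All 7 neural tube markers were lower, 6 of them without overlap, with a median log2 fold change of -1.95 (-1.22 without untreated replicate 2, with Sox2 then above 0). They summed to 139 and 188 CPM with dTAG-13, against 200.1 and 355 CPM in untreated gastruloids. Sox1 and Irx3, transcription factor genes of the neural tube, were called lower by DESeq2 (adjusted p = 0.0185 and 0.0394), whereas edgeR called 0 of the 7. DESeq2 called 14 genes lower in all, of 12315. It also called markers of other lists, all higher, against 0.219% of all genes. These were 5 of the 10 epithelial markers (Krt8, Krt18, Cldn6, Cldn7 and Rab25, with Cldn6 also in the gut list) and Dlx5 of the surface ectoderm. Of the 8 presomitic and somite markers, whose sums are given above, 7 were lower, 5 of them without overlap, with a median of -0.81, and between -1.20 and -0.56 without single libraries. No marker of these lists was at 0 in every library. Their part in the desmosome values was not tested.

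By the distance between log2 levels over the 4 libraries, each centred on its own mean, the genes most like Dsp among 12437 compared were Zfp534, Gm36182, Tapbpl, Nr5a2 and Bcam, at root mean square distances of 0.033 to 0.082. Zfp534 and Gm36182 had nearly the same counts in every library (44 and 43, 59 and 56 with dTAG-13, 22 and 22, 33 and 33 in untreated gastruloids), so shared reads between them are uncertain. Among the desmosome genes, Dsc2 was the nearest to Dsp at 0.214 and position 95, followed by Dsg2 at 0.249, Jup at 0.291, Perp at 0.356 and Pkp3 at 0.370, while Pkp2, Pkp4 and Pkp1 were at 0.497, 0.533 and 0.757. With 4 libraries many genes share a profile, and the distance is a description.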

How the data were processed

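RNA of 4 libraries was sequenced after ribosomal RNA depletion, from 250 to 500 ng of RNA with 6 to 10 PCR cycles, per the labels' protocols. The authors deposited 1 table of raw counts per library, by gene symbol. The submitters' processing notes name DESeq2 1.34.0, HTSeq 0.12.4, STAR 2.7.6a and fastp 0.20.1, with the builds GRCm38.p6 and mm10 and no roles. Annotation and strand setting: not given in the sources used here. Summary lines (reads outside genes, and ambiguous reads at 0.209% to 0.240%) entered neither library sizes nor tests.

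Counts were tested with edgeR 4.0.16 in R 4.3.3: filterByExpr (minimum count 10, minimum total 15), TMM factors, glmQLFit with robust estimation, two-sided glmQLFTest and Benjamini-Hochberg adjustment over all genes kept, at 0.05. The group was the only term, and the number test added the number. SE is the size of the log2 fold change over the root of F. CPM use TMM library sizes, and log2 differences add a prior count of 2. Alternatives were DESeq2 1.42.0, other scalings and filters, the replicate block and leaving out each library. The fits were tested on simulated data. For the group test, the simulated libraries had less spread than these 4 and no effect of the number, so that test does not vouch for the group fit here. Replicates of a group were not duplicates (chi-square per degree of freedom 32.7 and 38.4). Exon lengths and overlaps come from GENCODE M21 (GRCm38). Intervals cover counting error only.

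Genes named are the 9 members, Zeb2, up to 4 genes per related list by smallest p (average log2 CPM 0 or more) and the 5 nearest to Dsp. Other genes named were chosen after their values were seen. The members and lists were chosen with earlier results of these data known.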

Additional observations from a re-analysis of the deposited data

How the results depend on the processing

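The median log2 fold change of the desmosome genes, 0.92, stayed between 0.89 and 0.94 under the other scalings, filters, DESeq2 and the replicate block, and between 0.81 and 1.20 when single libraries were left out, the highest without untreated replicate 2. Pkp1 and Pkp3 were not measured at a minimum of 50 counts. Among the 9 genes signs turned for Pkp2 and Pkp4 alone, whose values ran from -0.17 to 0.16 and from -0.15 to 0.059 as single libraries were left out. Of the other values of single genes under these alternatives, 90 moved by less than the spread between replicates and 3 by more. Genes called between dTAG-13 and untreated, 0 with the group alone, were 41 with DESeq2 and 636 with the replicate number as a block, 395 higher (2.9% of genes tested) and 241 lower, and were 0 with each library left out. With the block 6 of the 9 desmosome genes were called, all higher (Dsg2, Dsc2, Dsp, Jup, Pkp1 and Pkp3). Genes of the related lists called were 0 of 43, 3 with DESeq2 and 16 with the block, 15 of them higher and 1 lower. The labels give the libraries shared numbers but do not say that a number marks a culture or batch. Deviations from the group means correlated between same-numbered libraries (r = 0.631 over genes), which is a hint from the data only with 2 pairs. Genes called between the numbers, 1729, were 1036 with total count scaling and 640 with DESeq2, and Pkp1 was no longer called under either; Dsp was called under all 6 alternatives and Dsg2 also with upper quartile factors (adjusted p = 0.0480). The cause of these differences was not tested. Depth limits Pkp1, Pkp3 and the absent desmosomal cadherins, which had few reads.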
